A study of Mus musculus with 2 samples.

Results

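The cytosolic ribosomal protein genes were taken from single-cell RNA counts of mouse liver as every feature whose symbol starts with Rpl or Rps followed by a digit, or is Rplp0, Rplp1, Rplp2 or Rpsa. Symbols ending in a -ps pseudogene tag and the Rps6 kinase families were left out. This rule found 86 of the 32287 features. Of these, 46 encode proteins of the large subunit and 31 proteins of the small subunit, which together are called the 77 canonical members. A further 8 are paralogs or retrocopies (Rpl3l, Rpl7l1, Rpl10l, Rpl22l1, Rpl36al, Rpl39l, Rps27l and Rps27rt), and Rps19bp1 shares only the name, since it encodes a protein that binds Rps19. The rule used symbols alone and no measured value.

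The library labelled shBicd2 was made from liver of wild-type C57BL/6J mice given, at an age of 4 weeks, an adeno-associated virus (AAV) with a short hairpin against Bicd2, a gene for a dynein motor adaptor. The other, labelled scramble, came from the same strain given at the same age the AAV with a scrambled sequence. In both groups the mice received 15 mg/kg of concanavalin A, a T-cell-activating lectin used to induce acute hepatitis, into a vein 3 weeks after infection, and livers were taken 6 hours later, so no untreated liver was compared. Each group held 1 library, and no source used here gives its number of animals. No difference between the groups therefore has a replicate check, no p-value is given, and every interval is a 95% interval that covers counting error only.

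A ribosome joins a small subunit, which reads the messenger RNA, to a large subunit, which forms the peptide bond. Its proteins are made from a set of short, abundant messenger RNAs that sit in the cytoplasm and are translated under control of the kinase mTORC1 through a 5′ terminal oligopyrimidine (TOP) motif, a cytosine at the first base followed by a run of pyrimidines. Malat1 and Neat1 are long RNAs kept in the nucleus, and the mitochondrial transcripts sit in organelles of the cytoplasm, so a barcode's share of ribosomal protein RNA can be set against its nuclear and its mitochondrial RNA. In liver most of the parenchyma is made of hepatocytes, which carry much messenger RNA for secreted plasma proteins.

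The starts of the members are shown because the TOP motif is the sequence feature the family is known for. A start was listed in RefSeq on GRCm38.p6 for 66 of the 86 members. The motif was searched as a C at the listed start followed by at least 4 bases that are each C or T, on the gene's strand only, and 14 of the 66 members (21.2%) had it at a listed start, against 3.01% of the 27025 genes of the table. A run of 7 or more pyrimidines within 25 bases of the listed start was found in 59.1% of the 66 members and in 32.7% of all genes. The windows run from 10 bases before the listed start to 20 bases from it, 5′ to 3′, and capitals mark the run of pyrimidines that begins at the listed start. The first 5 lines are the members with 1 listed start and the longest runs opening with C.
Rpl15 (chr14:18270967-18270996, minus strand): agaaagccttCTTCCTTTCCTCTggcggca
Rpl35 (chr2:39005112-39005141, minus strand): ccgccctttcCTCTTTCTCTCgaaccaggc
Rps10 (chr17:27635225-27635254, minus strand): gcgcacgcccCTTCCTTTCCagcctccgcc
Rps6 (chr4:86857348-86857377, minus strand): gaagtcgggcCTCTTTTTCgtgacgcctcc
Rps18 (chr17:33955646-33955675, minus strand): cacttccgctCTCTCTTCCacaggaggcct
The next 4 lines are members with 1 listed start whose level differed most between barcodes of high and low mitochondrial share, described below. The 3 after them are members with 1 listed start for which it differed least. Rplp1, also among the most different, has no listed start. Rpl10a, also among the least different, has more than 1 and is not shown.
Rpl36a (chrX:134585644-134585673, plus strand): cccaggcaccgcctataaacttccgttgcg
Rpl24 (chr16:55966265-55966294, plus strand): gctgttgctaggaaacagactgggcgctcg
Rpl11 (chr4:136053374-136053403, minus strand): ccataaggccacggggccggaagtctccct
Rpl23 (chr11:97782420-97782449, minus strand): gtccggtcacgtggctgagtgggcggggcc
Rpl7l1 (chr17:46782637-46782666, minus strand): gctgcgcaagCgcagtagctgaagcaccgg
Rpl12 (chr2:32961702-32961731, plus strand): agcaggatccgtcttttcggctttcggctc
Rpl22l1 (chr3:28805498-28805527, plus strand): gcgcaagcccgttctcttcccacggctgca
Both of these sets lack the motif at the listed start, and a missing match says only that these letters are not at that base. The last pair is Rps27 and its intronless copy Rps27rt, which lies inside Osbpl10 on the opposite strand of chromosome 9.
Rps27 (chr3:90213629-90213658, minus strand): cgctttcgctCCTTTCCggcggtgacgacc
Rps27rt (chr9:114982720-114982749, minus strand): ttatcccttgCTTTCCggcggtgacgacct
Reads of this pair may be shared, so both counts are uncertain.

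In the GENCODE M21 annotation of GRCm38 all 86 members were found, on 19 chromosomes. Small nucleolar RNA genes, whose products guide modification of ribosomal RNA, lie inside 30 of them and number 58. Another gene overlaps 28 members. Among members named below, a gene on the same strand overlaps Rpl13a, Rpl24 and Rpl36al, so their counts are uncertain too.

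The libraries labelled shBicd2 and scramble held 3038 and 2805 barcodes with 5624055 and 5086306 UMIs (unique molecular identifiers, each standing for 1 captured molecule). Filters kept 2941 and 2729 of these, at median depths of 1498 and 1502 UMIs, and 3 barcode sequences occurred in both. Barcodes outside clusters named for another cell class are called hepatocyte-signal barcodes and numbered 2650 and 2432. Clustering without ribosomal protein and mitochondrial genes gave 15 clusters, and most hepatocyte-signal clusters came mainly from 1 library. Only cluster 6, in which 10 of 15 hepatocyte markers were raised, took the hepatocyte name. Fibrinogen gene Fgb, a hepatocyte product, was at 3916 and 3570 CPM (UMIs of a gene per 1000000 UMIs) in all hepatocyte-signal barcodes of the libraries labelled shBicd2 and scramble. These barcodes held 19911 of 20936 and 16247 of 17054 kept Fgb UMIs. Of all kept UMIs they held 5084860 of 5417929 and 4551379 of 4892085. Fgb was thus also present in the other clusters, and its level alone does not mark these barcodes as hepatocytes. The targeted RNA, Bicd2, was no lower in the shBicd2-labelled library, at 20.1 CPM from 102 UMIs, against 14.5 CPM from 66 UMIs in the scramble-labelled library (ratio 1.38, interval 1.01 to 1.92). The groups are therefore called by their labels. EGFP, a fluorescent reporter among the features, was at 945 and 72.7 CPM.

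Ribosomal protein RNA was a larger share of the shBicd2-labelled library. Over all kept barcodes the members held 39098 UMIs, or 0.722% (interval 0.715 to 0.729), in the shBicd2-labelled library and 25942 UMIs, or 0.530% (0.524 to 0.537), in the scramble-labelled library. The ratio was 1.36 (1.34 to 1.38). In hepatocyte-signal barcodes the share was 0.695% and 0.510%, again a ratio of 1.36 (1.34 to 1.39). Per barcode the spread was wide: the median was 0.625% in the shBicd2-labelled library, with 10th and 90th percentiles of 0.305% and 1.35%, and 0.458% in the scramble-labelled library, with 0.201% and 0.981%. The ranges of the libraries overlapped over most of their length. The median barcode held 11 and 8 ribosomal protein UMIs, and 3 and 31 barcodes held none.

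Malat1 and Neat1, which hold most UMIs of the nuclear list, differed in the other direction. Together they took 7.30% of the non-mitochondrial UMIs of hepatocyte-signal barcodes in the shBicd2-labelled library and 10.4% in the scramble-labelled library. The list as a whole was mixed: 5 of its 8 measured genes were higher in the shBicd2-labelled library, beside 58.9% of all features. Past 1.5-fold were 3 of them, beside 22.2% of features. Gm42418 was at 29637 CPM in the shBicd2-labelled library, against 22896 CPM in the scramble-labelled library. The list's pooled ratio was 0.812 and its median log2 ratio 0.36. There were 9.61 and 4.95 ribosomal protein UMIs per 100 UMIs of Malat1 and Neat1. The median mitochondrial share was 0.331% and 0.174%. Whether these shares have a part in the ribosomal protein ratio was not tested. With Malat1, Neat1 and mitochondrial genes out of the denominator the ribosomal protein ratio was 1.32. In cluster 1 Ifit2, Ifit1 and Rsad2 (interferon-induced genes) lead and both libraries have over 100 barcodes. Its pooled share of non-mitochondrial UMIs showed no detectable difference (ratio 0.997, interval 0.946 to 1.05). It was 0.475% in 180 barcodes of the shBicd2-labelled library and 0.477% in 510 of the scramble-labelled library. The median barcode of cluster 1 differed, at 0.474% in the shBicd2-labelled library and 0.381% in the scramble-labelled library. In cluster 6 the pooled share was 2.73% in 243 and 1.60% in 171 barcodes (ratio 1.70, 1.63 to 1.78).

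The difference between the libraries was present with and without the reporter. In hepatocyte-signal barcodes with an EGFP UMI, the members took 0.558% of UMIs in 779 barcodes of the shBicd2-labelled library and 0.391% in 160 barcodes of the scramble-labelled library (ratio 1.43, 1.36 to 1.504). In barcodes with no EGFP UMI the shares were 0.778% and 0.523% (ratio 1.49, 1.46 to 1.52). Barcodes with an EGFP UMI were deeper, with medians of 2071 and 2277 UMIs against 1433 and 1540 without one. The part of depth in these shares was not tested.

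**Figure D1:**
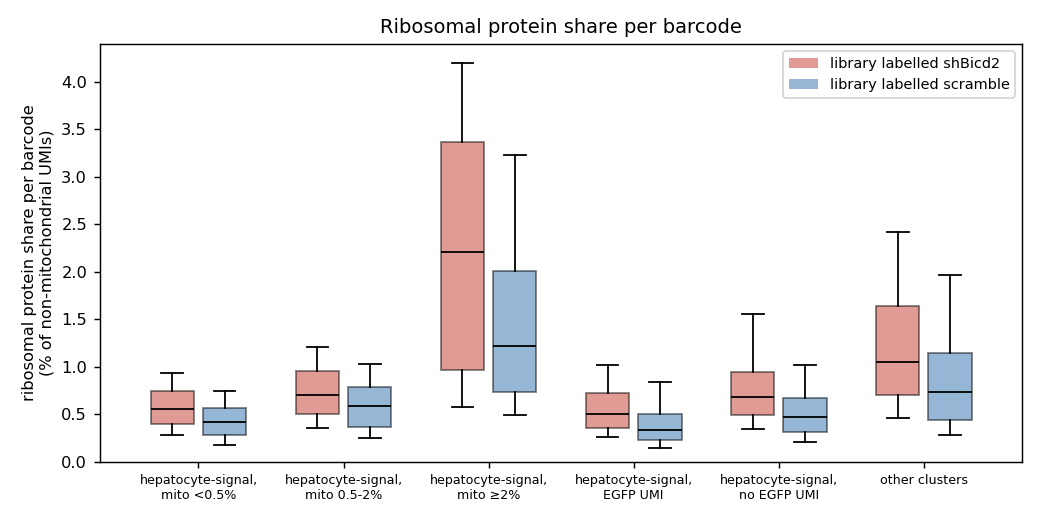
Ribosomal protein share of non-mitochondrial UMIs per barcode (vertical axis, percent) for 6 sets of kept barcodes, with the shBicd2-labelled library in red and the scramble-labelled library in blue. Boxes run from the 25th to the 75th percentile, lines mark medians and whiskers the 10th and 90th percentiles; the medians of the shBicd2-labelled library were the higher ones in all 6 sets, and the boxes overlapped in each.

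Pooled over the clusters outside the hepatocyte signal, the family held a larger share of the RNA. In these 291 and 297 barcodes the share of non-mitochondrial UMIs was 1.15% in the shBicd2-labelled library and 0.805% in the scramble-labelled library (ratio 1.43, 1.37 to 1.51). Their median mitochondrial share was 1.16% and 0.390%, against 0.331% and 0.174% in hepatocyte-signal barcodes, and its part was not tested. At 2% or more mitochondrial UMIs, the shBicd2-labelled library had 1.68% in these clusters and 2.16% in hepatocyte-signal barcodes. The scramble-labelled library had 1.91% and 1.37%. Cluster 9, led by Hand2os1, Gja1, Hgf and Dcn, had 1.05% and 0.771%. Cluster 10, in which B cell and erythroid markers were both raised, had 1.41% and 1.004%. Cluster 11, in which 11 of 14 monocyte or macrophage markers were raised, had 1.48% and 0.655%. Its ratio of 2.26 (2.03 to 2.52) was above those of clusters 9 (1.36) and 10 (1.40), and its median mitochondrial share was 1.64% in the shBicd2-labelled library and 0.308% in the scramble-labelled library, the part of which was not tested. The other 2 held under 50 barcodes in at least 1 library. Cluster 13, in which 10 of 12 neutrophil markers were raised, had 0.778% in 46 and 0.459% in 13 barcodes, the second value below the 0.514% of hepatocyte-signal barcodes of the scramble-labelled library. Cluster 14 had 1.02% in 6 and 0.668% in 17 barcodes. Median depths of clusters 9 to 11 were 696 to 790 UMIs in the shBicd2-labelled library and 731 to 877 UMIs in the scramble-labelled library, below those of hepatocyte-signal barcodes (1585 and 1588).

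Member by member, the library difference was spread over the family. In hepatocyte-signal barcodes 82 members had at least 50 UMIs over both libraries, Rps27rt had 15 and 9, and Rpl3l, Rpl10l and Rpl39l, whose expression is known mainly from muscle or testis, had none. The UMI count of 79 of the 82 members (96.3%) was higher in CPM in the shBicd2-labelled library, beside 58.9% of all 9474 features with at least 50 UMIs. The median ratio was 1.36, with a range of 0.873 to 1.92. The lower bound of the interval was above 1 for 68 of the 82 members, beside 33.4% of features. A ratio of at least 1.5 was reached by 20 members (24.4%), beside 22.2% of all features, a share near that background. No member was lower by 1.5-fold, beside 10.3% of all features. With barcodes that hold no EGFP UMI alone, 39 members were past 1.5-fold higher beside 25.2% of features, and again none lower beside 8.86%. Of the 82 members, 80 lay within 1.5-fold of the family's own ratio, and the intervals of 61 held it.

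The scaling bears on this comparison. TMM factors, which set the bulk of features equal, moved the median by 0.17 on the log2 scale towards the scramble-labelled library. The family's ratio was then 1.21, 75 of 82 members were higher beside 47.4% of all features, and 8 (9.76%) were past 1.5-fold beside 15.6%. Features past 1.5-fold lower were 16.3% under that scaling.

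Ratios of the subunits differed little. The 46 large-subunit members had a median ratio of 1.36 and the 31 small-subunit members of 1.37, with 10 members past 1.5-fold in each. Large over small subunit UMIs stood at 1.40 in the shBicd2-labelled library and 1.47 in the scramble-labelled library, a ratio of 0.952 (0.920 to 0.986). Across the 77 canonical members the rank correlation of CPM between the libraries was 0.939, as a description of genes counted in the same 2 libraries. UMI counts from the 3′ end are not scaled by length, so the order of genes is one of captured molecules.

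Among large-subunit proteins, Rpl41, a very short basic peptide of the subunit interface, supplied the most UMIs, at 245 CPM in the shBicd2-labelled library and 191 CPM in the scramble-labelled library (ratio 1.29, 1.18 to 1.41). Rplp1, an acidic protein of the stalk that recruits elongation factors, was at 144 and 108 CPM. Rpl10, a late-joining protein near the catalytic centre, was at 141 and 107 CPM. Rpl27a was at 136 and 105 CPM, Rpl10a at 130 and 104 CPM, Rpl38 at 134 and 98.4 CPM and Rpl13a at 134 and 92.5 CPM. All 7 were higher in the shBicd2-labelled library, by 1.25 to 1.45 times. Of the small-subunit proteins, Rps9 was at 184 and 113 CPM (ratio 1.64, 1.47 to 1.83) and Rps2, at the messenger RNA entry channel, at 169 and 127 CPM. The 10 canonical members with the most UMIs together supplied 22.4% and 22.5% of the family's UMIs.

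The 5 highest ratios belonged to Rps12, Rpsa, Rps23, Rpl27 and Rpl32. Rps12, a small-subunit protein at the beak, had 103 CPM in the shBicd2-labelled library and 53.6 CPM in the scramble-labelled library, a ratio of 1.92 (1.65 to 2.24). Rpsa, which is also a laminin receptor, had 129 and 72.5 CPM, a ratio of 1.78 (1.56 to 2.04). Rps23, a protein of the decoding centre, had 58.8 and 33.8 CPM. Its ratio was 1.74, that of Rpl27 was 1.73 and that of Rpl32 1.72. Chosen as the extremes of the 82, all 5 had intervals that lay above the family's ratio of 1.36.

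The 5 lowest were Rpl36al, Rpl7l1, Rpl31, Rps15a and Rpl22. Rpl36al, the near-identical autosomal paralog of the X-linked Rpl36a, had 107 CPM in the shBicd2-labelled library and 122 CPM in the scramble-labelled library, a ratio of 0.873 (0.774 to 0.984), but after thinning each barcode to 1000 UMIs the ratio was 1.04, on the other side of 1. Rpl36a itself had 31.1 and 20.9 CPM, a ratio of 1.49 (1.15 to 1.94), so the intervals of these paralogs did not meet. Both counts are uncertain where reads fall in sequence that the pair shares. Rpl7l1, a paralog of Rpl7, had 22.2 and 24.8 CPM (0.895, 0.683 to 1.17). Rpl31, at the peptide exit, had 41.3 and 45.3 CPM (0.912, 0.749 to 1.11), the lowest of the 77 canonical members. Rps15a had a ratio of 1.04 and Rpl22 of 1.09, and the intervals of both held 1. Of the other paralogs, Rpl22l1 had 74.9 and 58.7 CPM (1.28) and the p53 target Rps27l 58.6 and 47.0 CPM (1.25). Rps19bp1 had 7.47 and 5.27 CPM from 38 and 24 UMIs.

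**Figure D2:**
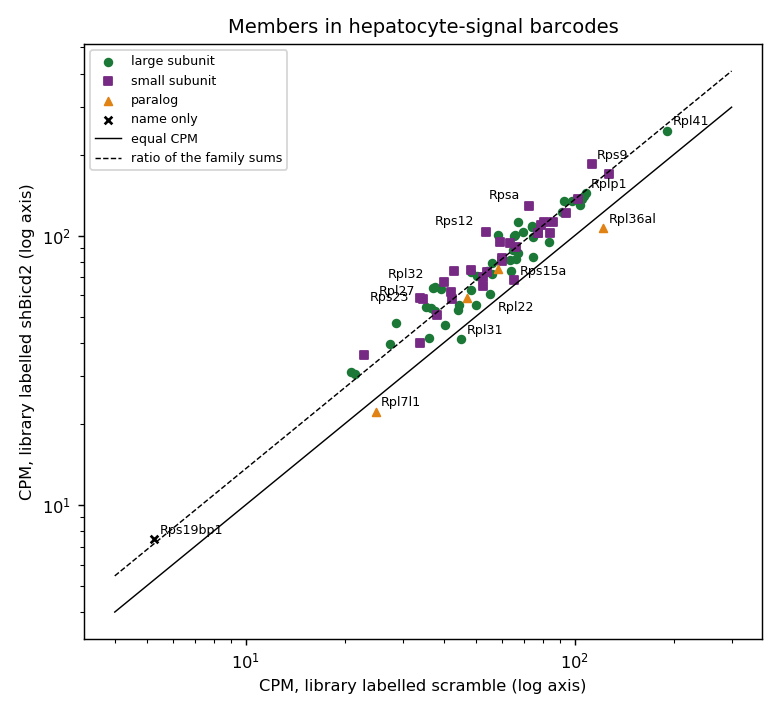
CPM of the 82 members with at least 50 UMIs in hepatocyte-signal barcodes of the shBicd2-labelled library (vertical, log axis) and of the scramble-labelled library (horizontal, log axis), 1 point per gene by subunit, without error bars. The solid line marks equal CPM and the dashed line the family's ratio of 1.36; 79 points lie above the solid line, and Rpl36al, Rpl7l1 and Rpl31 lie below it.

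Along the mitochondrial share of the barcodes the family moved far more than between the libraries. Hepatocyte-signal barcodes with at least 2% mitochondrial UMIs (the high band) were set against those under 0.5% (the low band), with mitochondrial UMIs left out of the denominator because they define the bands. In the shBicd2-labelled library the members took 2.16% in 319 high-band barcodes, against 0.550% in 1695 low-band barcodes, a ratio of 3.92 (3.82 to 4.02). In the scramble-labelled library they took 1.37% in 251 high-band barcodes, against 0.436% in 1872 low-band barcodes, a ratio of 3.14 (3.03 to 3.25). Bands are parts of 1 library each, so barcodes are not replicates here. TMM factors shifted the shBicd2-labelled contrast by 0.13 on the log2 scale, to a ratio of 4.28, and the scramble-labelled one by 0.04. The median depth was 958 UMIs in the high band and 1966 in the low band of the shBicd2-labelled library, and 1034 and 1779 UMIs in the scramble-labelled library.

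Malat1 and Neat1 went the other way along the same axis. They took 4.38% of non-mitochondrial UMIs in the high band and 7.44% in the low band of the shBicd2-labelled library, and 8.07% and 10.6% in the scramble-labelled library. There were 49.3 ribosomal protein UMIs per 100 of Malat1 and Neat1 in the high band and 7.40 in the low band of the shBicd2-labelled library. The same measure was 17.0 and 4.12 in the scramble-labelled library.

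The course over 9 bins was not a straight line. In the shBicd2-labelled library the share stood at 0.647% in 63 barcodes with no mitochondrial UMI, was lowest at 0.524% in the bin of 0.1% to 0.25%, reached 1.21% in that of 2% to 5% and 3.22% in that of 5% to 10%, and was 2.77% in that of 10% to 25%. In the scramble-labelled library it stood at 0.417% and 0.413% in the lowest bins, at 0.923% in the bin of 2% to 5%, at 1.37% in that of 5% to 10% and at 2.76% in that of 10% to 25%. Most of the gain therefore lay above 2% in both. The library ratio within bins ran from 1.13 to 1.55 below 5%, was 2.36 (2.20 to 2.54) in the bin of 5% to 10%, and was 1.01 (0.930 to 1.09) in that of 10% to 25%.

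In the bin of 5% to 10% the libraries also differed in their barcodes. Of 132 barcodes in the shBicd2-labelled library, 93.2% were in cluster 6, against 57.1% of 56 in the scramble-labelled library. Malat1 and Neat1 took 1.86% and 7.78%, and the 16 messenger RNAs for secreted liver proteins 11.5% and 5.68%. A single barcode held 692 of the 4743 ribosomal protein UMIs of this bin in the shBicd2-labelled library, and without it the share was 3.13%. Without the 10 barcodes of each high band richest in ribosomal protein UMIs, an alternative chosen after seeing the data, the high over low ratio was 3.59 in the shBicd2-labelled library and 2.92 in the scramble-labelled library.

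**Figure D3:**
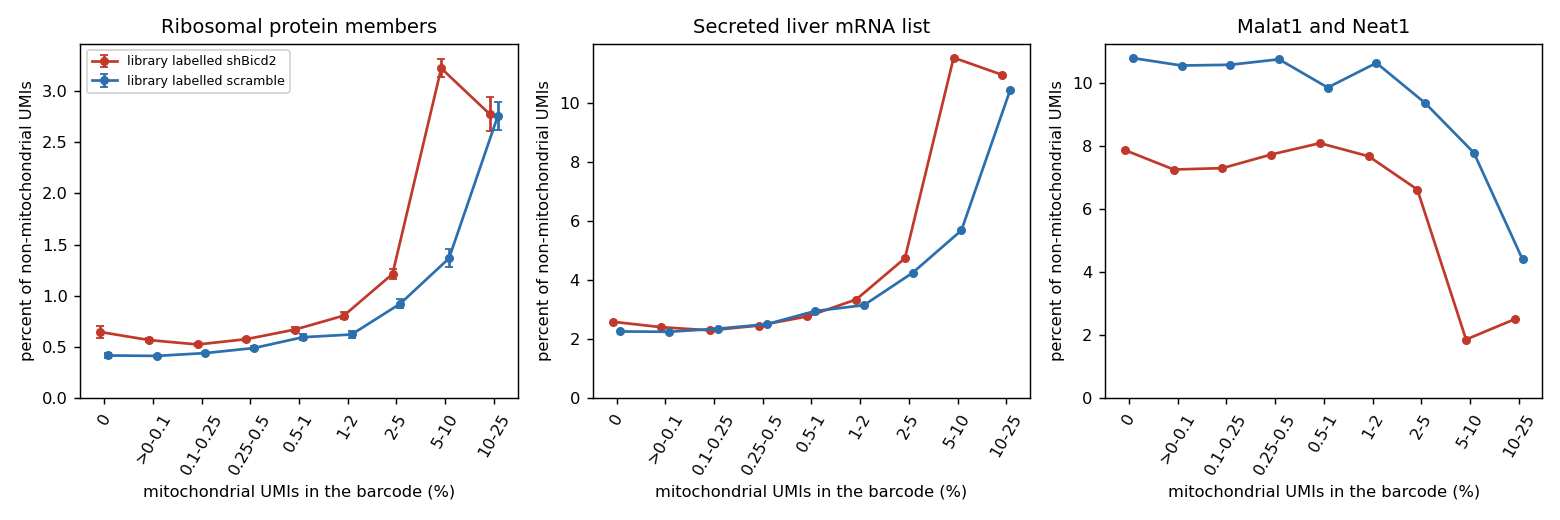
Share of non-mitochondrial UMIs (vertical axes, percent) held by the ribosomal protein members, by 16 secreted liver messenger RNAs and by Malat1 with Neat1, in 9 bins of mitochondrial share (horizontal axes, percent), for hepatocyte-signal barcodes of the shBicd2-labelled library (red) and the scramble-labelled library (blue). Bars on the first panel are 95% intervals for counting error; the first and second panels climb above 2% and the third drops, with Malat1 and Neat1 at 1.86% and 7.78% in the bin of 5% to 10%.

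Barcode by barcode the relation was looser. Spearman's rho between ribosomal protein share and mitochondrial share was 0.385 in the shBicd2-labelled library (2650 barcodes) and 0.371 in the scramble-labelled library (2432 barcodes), as a description of barcodes that share a library and unequal depth. It was -0.311 and -0.334 with the share of Malat1 and Neat1, and 0.543 and 0.45 with that of the secreted list. With the share of the short cytoplasmic list it was near 0, at -0.0164 and 0.112. Total UMIs went with lower shares, at -0.34 and -0.196. After thinning to 1000 UMIs per barcode, with 654 and 563 shallower barcodes dropped, rho with mitochondrial share was 0.327 and 0.333. Thinned barcodes held on average 18.8 ribosomal protein UMIs per 1000 in the high band and 5.72 in the low band of the shBicd2-labelled library, and 11.6 and 4.44 in the scramble-labelled library.

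Marker lists of most other cell classes were also higher in the high bands of both libraries. The 12 neutrophil markers took 0.534% of non-mitochondrial UMIs in the high band and 0.205% in the low band of the shBicd2-labelled library, and 0.220% and 0.146% in the scramble-labelled library. All 12 had UMIs in both bands of the shBicd2-labelled library, while Ly6g was at 0 in both bands of the scramble-labelled library. The 9 erythroid markers took 0.172% and 0.0206%, and 0.0703% and 0.0146%. The 14 monocyte or macrophage markers took 0.0144% and 0.00439%, and 0.00502% and 0.00127%, with Timd4 at 0 in all 4. The remaining lists, like that of monocytes or macrophages, each stayed under 0.05% in every band. Those of B, T or NK, endothelial, stellate or fibroblast, plasmacytoid dendritic and conventional dendritic cells were higher in both high bands too. The cholangiocyte genes Epcam, Krt7 and Krt19 were at 0 in all 4. In the scramble-labelled library the cholangiocyte list was level, at 0.00134% and 0.00132%, and the mesothelial list was at 0 in the high band and at 0.000185% in the low band. In the shBicd2-labelled library both lists were higher in the high band, at 0.00346% and 0.00187%, and at 0.00106% and 0.000241%. The part of this RNA in the ribosomal protein shares was not tested. Outside the hepatocyte-signal clusters the members took 1.68% in the high band and 0.973% in the low band of the shBicd2-labelled library (ratio 1.73, 1.60 to 1.87), and 1.91% and 0.602% in the scramble-labelled library (3.17, 2.89 to 3.48). In the high band of these clusters the order of the libraries turned, with a ratio of the shBicd2-labelled over the scramble-labelled library of 0.880 (0.803 to 0.965), against 1.62 (1.49 to 1.75) in their low band.

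All 82 members with at least 50 UMIs were higher in the high band of both libraries, beside 34.7% of 9461 features in the shBicd2-labelled library and 39.8% in the scramble-labelled library. A ratio of at least 1.5 was reached by 81 members in the shBicd2-labelled library, beside 16.6% of all features, and by 79 in the scramble-labelled library, beside 17.3%. No member was lower by 1.5-fold in either library, beside 35.0% and 27.3% of features. Median ratios over the members were 4.04 and 3.23, and 45 and 20 members reached 4-fold, beside 3.01% and 2.61% of features. Both subunits had similar values: large-subunit members had median ratios of 4.08 and 3.37, and small-subunit members of 4.20 and 3.15, in the libraries labelled shBicd2 and scramble. Over the 77 canonical members the rank correlation of this ratio between the libraries was 0.640, as a description of genes of unequal depth.

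Rpl36a differed most. It had 160 CPM in the high band and 19.8 CPM in the low band of the shBicd2-labelled library (ratio 8.06, 5.64 to 11.5), and 100.4 and 12.9 CPM in the scramble-labelled library (7.76, 4.76 to 12.5). Its paralog Rpl36al had 213 and 99.6 CPM (2.14, 1.66 to 2.73), and 228 and 113 CPM (2.01, 1.53 to 2.60). The intervals of these near-identical paralogs did not meet in either library.

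The stalk protein Rplp1 had 665 CPM in the high band and 96.1 CPM in the low band of the shBicd2-labelled library (6.92, 5.87 to 8.16), and 435 and 76.8 CPM in the scramble-labelled library (5.66, 4.57 to 6.99). Its partners on the stalk had lower ratios, at 4.14 and 3.49 for Rplp2 and 4.54 and 2.94 for the anchor Rplp0. Rpl24, at the bridge between the subunits, had ratios of 5.99 and 5.67. Rpl11, which with Rpl5 binds Mdm2 and so stabilises p53 when ribosome assembly fails, had 6.03 and 5.32, and Rpl5 5.05 and 4.16. Rpl23 had 5.91 and 4.68.

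At the low end were paralogs and a few canonical members. Rpl7l1 had 34.6 CPM in the high band and 21.2 CPM in the low band of the shBicd2-labelled library (1.64, 0.834 to 2.96), and 30.1 and 25.1 CPM in the scramble-labelled library (1.20, 0.533 to 2.38). Rpl10a had 189 and 124 CPM (1.53, 1.17 to 1.964), and 177 and 98.5 CPM (1.80, 1.32 to 2.41). Rpl12, a protein at the base of the stalk, had ratios of 2.35 and 1.39, and the paralog Rpl22l1 of 2.36 and 1.43. Rps19bp1 had 4 UMIs in each high band, too few to place (1.37, 0.350 to 3.90, and 2.67, 0.660 to 8.03). The paralog Rps27l lay within the family, at 3.66 and 4.13. Rps27, the likely parent of Rps27rt, had ratios of 2.96 and 2.75.

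**Figure D4:**
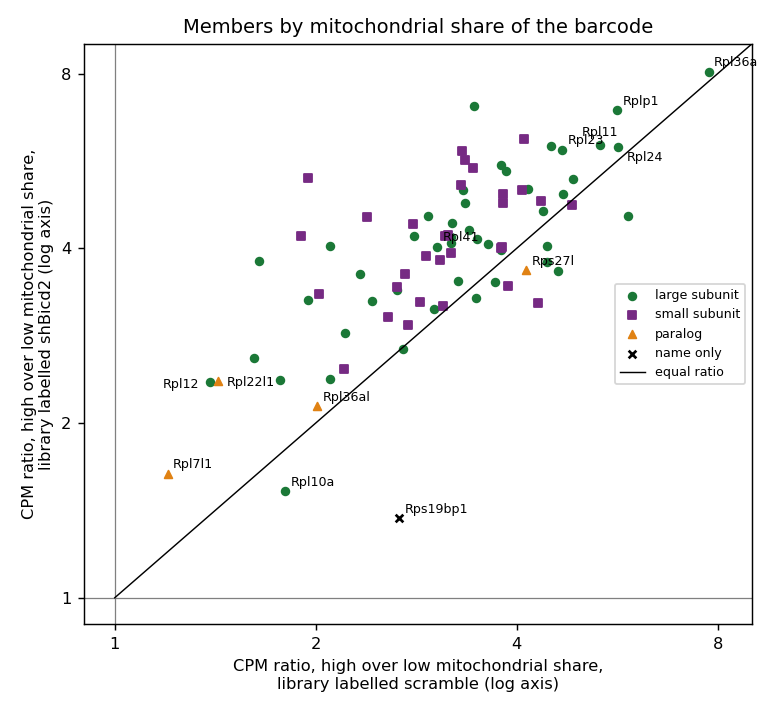
CPM ratio of the high over the low band of mitochondrial share for the 82 members, in the shBicd2-labelled library (vertical, log axis) and the scramble-labelled library (horizontal, log axis), 1 point per gene by subunit, without error bars. Grey lines mark a ratio of 1 and the black line equal ratios; all 82 points lie above 1 on both axes, with Rpl36a at 8.06 and 7.76 and Rpl7l1 at 1.64 and 1.20.

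Median ratios lay near each other when members were grouped by features that the name does not use. The 30 members with a small nucleolar RNA gene inside had median ratios of 1.33 between the libraries, 4.00 along mitochondrial share in the shBicd2-labelled library and 3.33 in the scramble-labelled library. The 52 without one had 1.37, 4.06 and 3.20. The 13 measured members with a TOP start had 1.33, 4.14 and 3.19, and the 49 with other listed starts 1.36, 3.82 and 3.10. Some of the 49, such as Rpl27a and Rpl7a, have a pyrimidine run that opens with T at the listed start. The split is by the letter match alone, so it cannot show whether the motif matters.

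The other genes of the pathway divided by role. Fau encodes a small-subunit protein fused to a ubiquitin-like domain and lies outside the name rule. It had high over low ratios of 4.04 (3.37 to 4.82) in the shBicd2-labelled library and 4.04 (3.20 to 5.06) in the scramble-labelled library, beside the family's 3.92 and 3.14. Of the 16 translation factors and related messenger RNAs, 13 and 9 reached 1.5-fold higher, beside 16.6% and 17.3% of all features. The list's pooled ratios were 2.17 and 1.73. Tpt1, a short TOP messenger RNA, had ratios of 5.42 and 4.16, the elongation factors Eef1a1 2.71 and 2.50 and Eef2 1.91 and 1.53, and the poly(A)-binding Pabpc1 0.885 and 0.990, with both of its intervals holding 1.

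Genes that build ribosomes had pooled ratios near 1. The 32 assembly factors had pooled ratios of 1.01 (0.917 to 1.11) in the shBicd2-labelled library and 0.982 (0.882 to 1.09) in the scramble-labelled library. Of the 32, 7 and 4 were past 1.5-fold higher, beside 16.6% and 17.3% of all features. Another 5 and 7 were past it lower, beside 35.0% and 27.3% of features. Gnl3, a nucleolar GTPase, had 0.672 and 0.744, and Ncl, nucleolin, 1.33 and 0.978. The small nucleolar RNA host RNAs, many of which carry TOP motifs but are read poorly into protein, had pooled ratios of 0.802 and 0.722, among them Snhg3 with 0.663 and 0.591 and Gas5 with 0.832 and 0.994. Mitochondrial ribosomal proteins, which are encoded in the nucleus and serve the organelle's own ribosome, had pooled ratios of 1.34 and 1.13 over 78 genes. Of the 71 measured ones, 44 and 20 were past 1.5-fold higher, beside 16.6% and 17.3% of all features. Another 4 and 13 were past it lower, beside 35.0% and 27.3%.

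The medians over single genes set these lists beside all features. On the log2 scale the median high over low ratio was 2.02 in the shBicd2-labelled library and 1.71 in the scramble-labelled library for the ribosomal protein members, 1.09 and 0.68 for the translation list, 0.12 and 0.18 for the assembly factors, and -0.20 and -0.27 for the small nucleolar RNA hosts, against -0.23 and -0.08 for all features. For the assembly factors of the scramble-labelled library the median and the pooled ratio lay on opposite sides of no difference. The secreted list had medians of 1.79 and 1.73 and the short cytoplasmic list of 2.03 and 1.54. Mitochondrial ribosomal proteins had medians of 0.85 and 0.29.

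Cytoplasmic messenger RNAs of other kinds were nearer to the family. The 16 secreted liver messenger RNAs had pooled ratios of 3.38 and 2.46. In each library 15 of the 16 were past 1.5-fold higher, beside 16.6% and 17.3% of all features. For Fgb the ratios were 2.68 and 1.58 and for transferrin, Trf, 2.44 and 2.21. The 24 short cytoplasmic messenger RNAs had pooled ratios of 1.68 and 1.87. Of the 24, 21 and 19 were past 1.5-fold higher, beside the same 16.6% and 17.3% of features. Fth1 of this list, a ferritin chain, had 2.39 and 2.78. The nuclear list had 0.613 and 0.872. Its member Gm42418, which overlaps a ribosomal RNA repeat, had 0.677 and 1.41, opposite directions in the 2 libraries. Genes that mTORC1 inhibition and Atf4 act on had 0.755 and 0.769, Atf4 itself 0.703 and 0.728.

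Between the libraries the same lists lay differently. In hepatocyte-signal barcodes the pooled ratio of the shBicd2-labelled library over the scramble-labelled library was 1.42 for Fau, 1.25 for the translation list, 1.01 for the assembly factors, 0.818 for the small nucleolar RNA hosts and 1.11 for the secreted list, beside 1.36 for the family. Short cytoplasmic messenger RNAs had 1.91, with Ftl1, a ferritin chain, at 1248 and 476 CPM. Of the 16 translation genes, 13 were higher, beside 58.9% of all features. Only 1 was past 1.5-fold, Eef1a1 at 479 and 296 CPM, beside 22.2% of features.

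**Figure D5:**
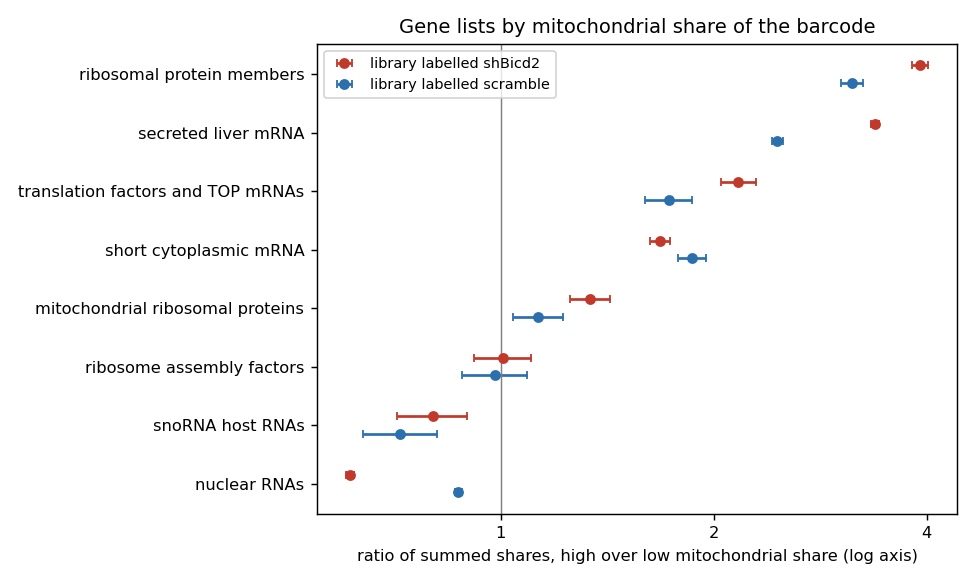
Ratio of summed shares in the high over the low band of mitochondrial share (horizontal, log axis) for the ribosomal protein members and 7 other gene lists (rows), in the shBicd2-labelled library (red) and the scramble-labelled library (blue), with 95% intervals for counting error. The members lie at 3.92 and 3.14, ribosome assembly factors at 1.01 and 0.982 and nuclear RNAs at 0.613 and 0.872; the grey line marks equal shares.

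The library ratio within the bands was smaller than over all barcodes at low and middle mitochondrial share. The members took 0.550% in the low band of the shBicd2-labelled library and 0.436% in that of the scramble-labelled library, a ratio of 1.26 (1.24 to 1.29). Between 0.5% and 2% they took 0.718% and 0.605% (1.19, 1.13 to 1.24), and in the high band 2.16% and 1.37% (1.58, 1.52 to 1.64). In the low band 74 of 81 members were higher in the shBicd2-labelled library, beside 58.5% of 8921 features, with a median ratio of 1.26, and 14 (17.3%) were past 1.5-fold, beside 22.2% of features.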

How the data were processed

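RNA of single barcodes of mouse liver was measured with a 10x 3′ kit in 2 libraries, 1 per group. What the authors deposited are unnormalized UMI counts for each gene in each barcode. The software is Cell Ranger 6.1.2 per the file headers, and Cell Ranger 6.0.1 with Seurat 4.0.3 and mm10 per the submitters' processing notes. No source used here says whether intron reads were counted.

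Barcodes entered with 200 genes or more and no more than 25% mitochondrial UMIs, and the 73 and 62 highest Scrublet scores were removed as doublets. Clusters were made with scanpy 1.11.5 and leidenalg 0.10.2 at resolution 1.0, and named from marker lists where at least 3 markers, and 40% of a list, were raised. UMIs were summed per library and divided by the total (CPM, percent). Ratios have exact conditional binomial intervals and shares exact binomial (Clopper-Pearson) ones. Members with at least 50 UMIs over both libraries were given ratios, without a pseudocount. The intervals were tested on simulated counts. TMM factors came from edgeR 4.0.16. Statistics were run in Python 3.11.15 with scipy 1.17.1.

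Named genes were the 10 canonical members with the most UMIs, the 5 highest and lowest of each ratio, paralogs, Bicd2 and up to 4 genes of each other list; Rpl5, Rplp0, Rplp2, Rpl36a and Rps27 were added as partners of these after their values were seen. Members and lists were chosen with earlier results of these data known. Start sites are from RefSeq on GRCm38.p6 and gene positions from GENCODE M21. Depth, normalization, filters, clustering, reporter and band limits were varied. Some genes that this rule names are not reported here.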

Additional observations from a re-analysis of the deposited data

Results flagged for a closer look

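UMIs were also counted for ribosomal protein pseudogenes, which the name rule leaves out and no comparison above uses, above the limit of 3 that a count of 0 allows. Rpl10-ps3 had 59 UMIs in the kept barcodes of both libraries together, 37 in the shBicd2-labelled library and 22 in the scramble-labelled library. Rpl9-ps6 had 24, as 14 and 10, and Rpl36a-ps1 had 4, as 4 and 0. The annotation names 300 such pseudogenes, of which 5 are among the features, and Rpl9-ps1 and Rpl36-ps4 had no UMI. Whether reads of the parent genes fell on these copies was not tested.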

How the results depend on the processing

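With 1 library per group no result has a replicate check. No paired analysis was possible because each group holds 1 library, and for the same reason no replicate could be left out. The family's ratios kept their direction under the alternatives run. The library ratio of the family over all kept barcodes (1.36) was 1.22 with TMM factors, 1.40 with at most 10% mitochondrial UMIs, 1.39 after thinning to 1000 UMIs and 1.32 without mitochondrial genes, Malat1 and Neat1. In hepatocyte-signal barcodes (1.36) it was 1.21, 1.41 and 1.32 under the first, second and last of these, 1.49 with no EGFP UMI, and, chosen after seeing the data, 1.29 with the same mix of mitochondrial bins and 1.26 under 0.5% mitochondrial UMIs. The high over low ratio of the shBicd2-labelled library (3.92) was 4.28 with TMM factors, 3.81 over all deposited barcodes, 3.79 with at most 10% mitochondrial UMIs, 3.48 after thinning, 3.79 without Malat1 and Neat1, 5.82 with bands at 5% and 0.25%, and 3.59 without the 10 richest barcodes. That of the scramble-labelled library (3.14) was 2.39 with at most 10%, 2.79 after thinning, 4.72 with the wider bands and 2.92 without the 10 richest. Members past 1.5-fold higher between the libraries numbered 8 with TMM factors and 39 with no EGFP UMI (beside 25.2% of features), against 20. The cause of these moves was not tested. Of 112 values of single named members under alternatives, 97 stayed within the member's interval and 7 lay on the other side of 1. One of the 7, Rpl36al after thinning (1.04 against 0.873), also left its interval; the others were Rpl12, Rpl22 and Rps15a with TMM factors, Rps15a under 0.5% mitochondrial UMIs, Rpl7l1 with no EGFP UMI and Rps19bp1 after thinning. At this depth a median barcode held 11 and 8 ribosomal protein UMIs, so members cannot be compared within a barcode.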
